A study of Mus musculus with 12 samples.

Results

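The genes described here are 5 whose expression is known to differ between substrains of the C57BL/6 mouse, namely Gabra2, Nnt, Wdfy1, Entpd4 and Ide, out of 53465 genes in the count table. They were picked by symbol, after Gabra2 and Nnt had been seen low in the Q175HD libraries. The Q175HD levels below are therefore a description of that choice and carry no test. Tests are given only for the comparisons between the other genotypes. The fit behind these tests held all 12 libraries, so the Q175HD libraries entered its filter, its scaling and its estimate of the spread. Of the 5 genes, 4 passed the filter on low counts, and Entpd4 had 0 reads in every library.

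RNA of the mouse striatum, whose source the labels call striatal cells, was depleted of ribosomal RNA and sequenced in 12 libraries, 3 from each of 4 genotypes. WT mice carried no listed change. SUMO-KO mice lacked SUMO-1, a small protein that is attached to other proteins to modify them. Q175HD mice were the neo-deleted Q175 knock-in, a Huntington's disease model with an expanded CAG repeat in the huntingtin gene Htt, and Q175HD/SUMO-KO mice carried the knock-in without SUMO-1. The labels give one background, C57/BL6, for all libraries and name no substrain and no age. A strain name is given for Q175HD alone, B6J.129S1-Htttm1.1Mfc/190ChdiJ, in which B6J is the usual abbreviation of C57BL/6J and 129S1 names the donor strain of the modified Htt allele. Genotype and substrain therefore cannot be told apart in the Q175HD libraries. Nothing in the labels ties the 3 libraries of a genotype to separate mice. By their Xist reads, given below, WT 2, SUMO-KO 2 and Q175HD/SUMO-KO 2 were female and the other libraries male. Each of these female libraries thus came from a different mouse than the rest of its genotype. Whether the remaining libraries of a genotype came from separate mice is not known. The p-values reflect library-to-library spread, and how much of it is technical is not known.

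C57BL/6 mice have been bred in separate colonies for many generations, and new mutations have become fixed in each. C57BL/6J carries a small deletion beside a splice acceptor of Gabra2 that lowers its mRNA and protein in the brain. It also lacks several coding exons of Nnt, and the mouse reference genome, which was made from C57BL/6J, lacks them too. Ide and Fgfbp3 are known to vary in copy number among C57BL/6J mice.

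Apart from the known substrain deletion of Gabra2, the annotation itself holds an alternative acceptor in 1 of its exons. The sources used here do not give the position of the deletion, so no link between it and this exon is drawn. Exon 5 of the 10 exons of its annotated protein-coding transcript lies at chr5:71014416-71014636 on the minus strand (GENCODE M21, GRCm38) and is 221 bases long. One of the 2 transcripts annotated as subject to nonsense-mediated decay enters the same exon 61 bases later and keeps 160 bases. The capitals mark the 61 bases that only the coding transcript of this pair contains.
Gabra2 exon 5: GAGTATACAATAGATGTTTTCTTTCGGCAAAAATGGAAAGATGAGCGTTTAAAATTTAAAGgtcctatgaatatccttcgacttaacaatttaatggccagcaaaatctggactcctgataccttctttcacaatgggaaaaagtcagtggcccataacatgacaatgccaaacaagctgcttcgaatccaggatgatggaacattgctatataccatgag
The files count reads per gene, so the use of either acceptor is not measured here.

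Entpd4, a UDP-hydrolysing enzyme of the Golgi and lysosome, could not be assessed from these counts. It lies on chromosome 14 at 69337174-69367270 on the plus strand, and a second gene, Entpd4b, lies 188.2 kb away. Both had 0 reads in all 12 libraries. The longest coding transcripts of the pair, each 3589 bases with 1839 coding bases, are identical, and all 3540 stretches of 50 bases in the Entpd4 transcript also occur in Entpd4b. The first 90 coding bases are shown because they are the same in both copies, so that a read from them cannot be placed in 1 gene.
Entpd4: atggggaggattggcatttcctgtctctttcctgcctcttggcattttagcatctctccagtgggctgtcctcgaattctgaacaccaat
Entpd4b: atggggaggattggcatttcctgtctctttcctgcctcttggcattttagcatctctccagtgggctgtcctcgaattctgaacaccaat
How reads with more than 1 possible origin were counted is not given in the sources used here, and a count of 0 sets no limit on the level of either copy. The other members do not have this problem, since 0.737% of such stretches in the longest coding transcript of Gabra2, 0.333% in Wdfy1 and 0 in Nnt and Ide occur in any other gene.

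The libraries held 9379594 to 17226419 counted reads. Levels are given in CPM, read counts brought to a common library size after TMM scaling. Ppp1r1b, a defining gene of striatal projection neurons, was at 405 to 1227 CPM, so the tissue label is borne by its marker. The summed level of 20 projection neuron markers was 10730 to 13120 CPM in WT and SUMO-KO, 6419 to 6730 in Q175HD and 4078 to 6422 in Q175HD/SUMO-KO. In bulk tissue, fewer cells of a type and less RNA per cell cannot be told apart. Xist reads marked WT 2, SUMO-KO 2 and Q175HD/SUMO-KO 2 as female and the other 9 libraries, all of Q175HD among them, as male. A list of 20 cortical excitatory neuron genes summed to 1073 to 1808 CPM in WT and 815 to 987 CPM elsewhere, and its part in the results was not tested beyond its use as a covariate. Choroid plexus genes, 8 in number, varied widely within every genotype. They summed to 62.7 to 4084 CPM in WT, 60.7 to 2271 in SUMO-KO, 82.8 to 5062 in Q175HD and 81.8 to 5020 in Q175HD/SUMO-KO. The part of the choroid plexus in the results was not tested.

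Gabra2 encodes the alpha2 subunit of the GABA-A receptor, the chloride channel that carries fast inhibition, and lies on chromosome 5 at 70957597-71095849 on the minus strand (ENSMUSG00000000560), 36.05 Mb from Htt on the same chromosome. Its level was 48.3, 39.4 and 48.8 CPM in the Q175HD libraries. It was 125, 101 and 154 CPM in WT, 171, 162 and 122 CPM in SUMO-KO, and 110, 152 and 106 CPM in Q175HD/SUMO-KO. Every Q175HD library lay below every other library, and the other 3 genotypes overlapped one another. WT 2 was the lowest of the 9 others at 101 CPM, and Q175HD/SUMO-KO 3 was the next lowest at 106 CPM, both still well above the highest Q175HD level of 48.8 CPM. The group means were 45.5 ± 5.27 CPM in Q175HD, 123 ± 25.7 in Q175HD/SUMO-KO, 127 ± 26.7 in WT and 152 ± 25.9 in SUMO-KO (SD, n = 3). Only the step from Q175HD to the next group exceeded the spread within groups.

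Among the comparisons without Q175HD, the fitted log2 fold change of Gabra2 was 0.26 (SE 0.18, 95% interval -0.13 to 0.65) in SUMO-KO against WT. It was -0.31 (SE 0.18, interval -0.70 to 0.08) in Q175HD/SUMO-KO against SUMO-KO, where the knock-in is the labelled difference. Neither passed edgeR's quasi-likelihood test, with adjusted p-values of 0.516 and 0.316. Against WT, Q175HD/SUMO-KO differed by -0.05 with an adjusted p of 0.911. The described values of Q175HD were -1.48 (SE 0.19) against WT and -1.74 against SUMO-KO. That of Q175HD/SUMO-KO against Q175HD was 1.43 (SE 0.19).

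Nnt encodes the nicotinamide nucleotide transhydrogenase of the inner mitochondrial membrane, which uses the proton gradient to make NADPH for the defence against peroxides. It lies on chromosome 13 at 119335448-119408997 on the minus strand (ENSMUSG00000025453), and its longest coding transcript in the C57BL/6J reference has 17 exons. The exons missing from that reference cannot have been counted. Its level was 27.8, 25.5 and 24.3 CPM in Q175HD. It was 48.0, 40.8 and 45.9 CPM in WT, 51.5, 51.6 and 48.1 CPM in SUMO-KO, and 42.4, 38.4 and 39.2 CPM in Q175HD/SUMO-KO. Q175HD lay below all other libraries, and the 3 Q175HD/SUMO-KO libraries lay below all 3 SUMO-KO libraries but overlapped WT 2; of all tested genes, 11% were lower in Q175HD/SUMO-KO than SUMO-KO with no overlap. The group means were 25.8 ± 1.81, 44.9 ± 3.69, 50.4 ± 1.95 and 40.0 ± 2.098 CPM in Q175HD, WT, SUMO-KO and Q175HD/SUMO-KO (SD, n = 3), a narrower spread within groups than for Gabra2.

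Nnt was the only member called in a comparison without Q175HD. In Q175HD/SUMO-KO against SUMO-KO it fell by 0.33 on the log2 scale (SE 0.09, interval -0.53 to -0.14, edgeR adjusted p = 0.0389). In that comparison 7.81% of the 17796 genes tested were called in either direction and 4.61% were called lower, and the 1 called member of 4 tested is read against that share. The authors' deposited table gives -0.34 for the same comparison with an adjusted p of 0.0244. The call was lost when genes of low count were kept, with an adjusted p of 0.114, when the fit held only these 2 groups, with 0.107, and without WT 2 and Q175HD/SUMO-KO 3, with 0.111, while the fold change stayed between -0.34 and -0.32 in these fits. Leaving out any one of the 6 libraries compared, except SUMO-KO 3, also ended the call, with adjusted p-values from 0.0731 to 0.111, and without SUMO-KO 3 it was 0.0325. In SUMO-KO against WT the log2 fold change of Nnt was 0.17 (SE 0.09, interval -0.03 to 0.36, adjusted p = 0.418), where 0.045% of genes were called. In Q175HD/SUMO-KO against WT it was -0.17 with an adjusted p of 0.285, where 8.44% of genes were called. The described values of Q175HD were -0.80 (SE 0.09) against WT and -0.96 against SUMO-KO. That of Q175HD/SUMO-KO against Q175HD was 0.63 (SE 0.09).

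**Figure D1:**
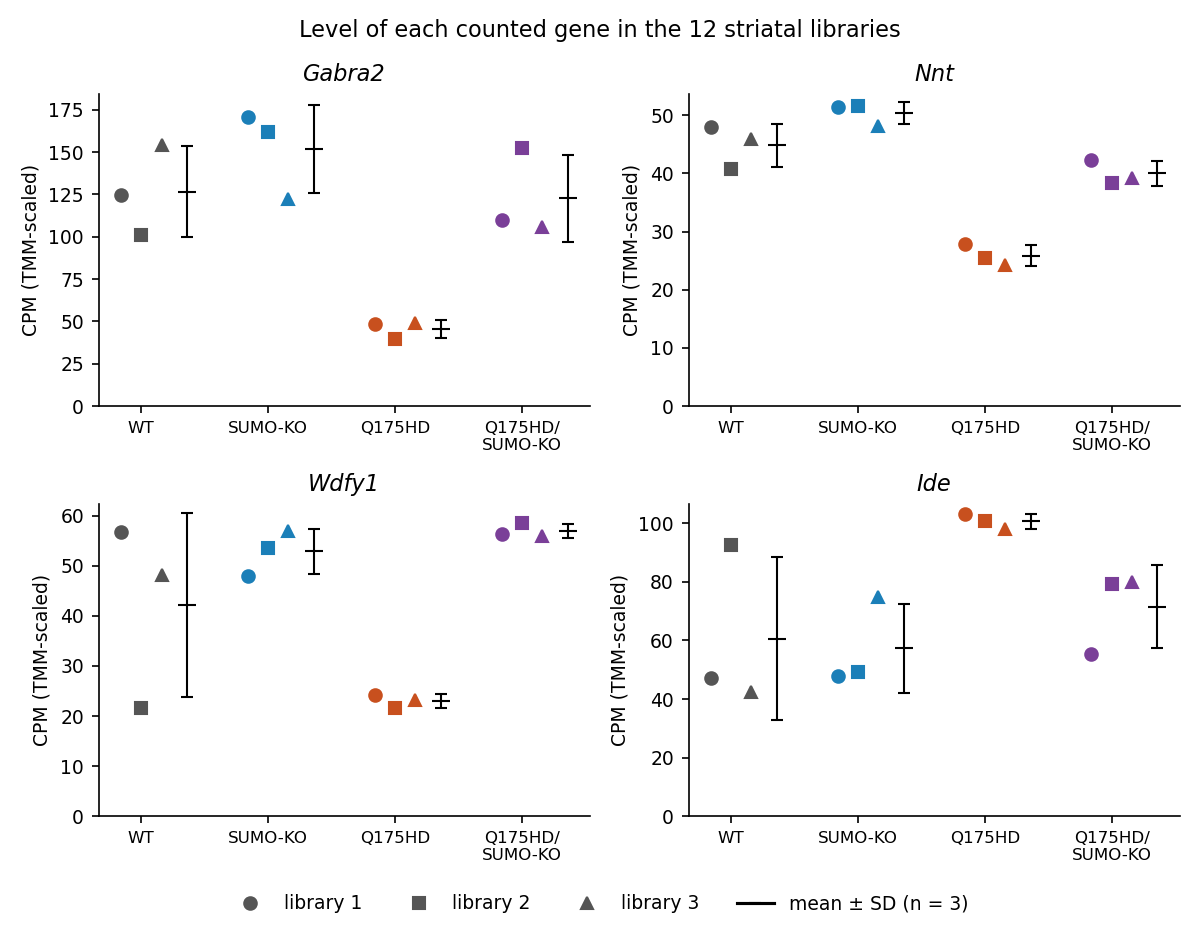
Level of Gabra2, Nnt, Wdfy1 and Ide in CPM in each of the 12 libraries, by genotype; symbols mark the library number, and bars are the mean ± SD of 3 libraries. Gabra2 and Nnt are lowest in the 3 Q175HD libraries; in the lower panels WT 2, the square, lies at the level of Q175HD for Wdfy1, at 21.5 CPM, and near it for Ide, at 92.7 CPM.

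Wdfy1 encodes an endosomal adaptor with a FYVE domain that binds the lipid phosphatidylinositol 3-phosphate and takes part in Toll-like receptor signalling through TRIF. It lies on chromosome 1 at 79702262-79776143 on the minus strand (ENSMUSG00000073643). Its level was 24.3, 21.6 and 23.2 CPM in Q175HD. It was 56.7, 21.5 and 48.1 CPM in WT, 48.0, 53.6 and 57.02 CPM in SUMO-KO, and 56.4, 58.6 and 56.0 CPM in Q175HD/SUMO-KO. The 12 libraries thus took 2 separate levels, one of 21.5 to 24.3 CPM in the Q175HD libraries and WT 2, and one of 48.0 to 58.6 CPM in the other 8. WT 2 was the lowest of all. The female libraries SUMO-KO 2 and Q175HD/SUMO-KO 2 were at the upper level. The spread this gave was 42.1 ± 18.3 CPM in WT, against 1.38 to 4.55 CPM (SD, n = 3) in the other genotypes.

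No comparison of Wdfy1 without Q175HD passed the test. The log2 fold change was 0.33 (SE 0.25, interval -0.22 to 0.88, edgeR adjusted p = 0.565) in SUMO-KO against WT and 0.11 (SE 0.25, interval -0.44 to 0.65, adjusted p = 0.82) in Q175HD/SUMO-KO against SUMO-KO. It was 0.44 (SE 0.25, interval -0.11 to 0.98, adjusted p = 0.323) in Q175HD/SUMO-KO against WT. Both values against WT rested on WT 2, without which they were 0.01 and 0.12. The described value of Q175HD against WT was -0.87 (SE 0.26) with WT 2 and -1.19 without it. Q175HD against SUMO-KO had -1.20 (SE 0.26), and Q175HD/SUMO-KO against Q175HD had 1.31 (SE 0.26).

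Ide encodes insulin-degrading enzyme, a zinc metalloprotease that cleaves insulin and the amyloid beta peptide. It lies on chromosome 19 at 37268743-37337852 on the minus strand (ENSMUSG00000056999). Its level was 103, 101 and 98.1 CPM in Q175HD, the highest of the 4 genotypes. It was 47.1, 92.7 and 42.3 CPM in WT, 47.8, 49.4 and 74.9 CPM in SUMO-KO, and 55.3, 79.3 and 80.0 CPM in Q175HD/SUMO-KO. Every Q175HD library lay above the other 9, with WT 2 closest. Within the other genotypes the libraries spread over a wide range, with 42.3 to 55.3 CPM in 5 of them, 74.9 to 80.0 CPM in SUMO-KO 3, Q175HD/SUMO-KO 2 and Q175HD/SUMO-KO 3, and 92.7 CPM in WT 2. The group means were 101 ± 2.53 CPM in Q175HD, 71.6 ± 14.1 in Q175HD/SUMO-KO, 60.7 ± 27.8 in WT and 57.3 ± 15.2 in SUMO-KO (SD, n = 3), and the last 3 did not differ beyond their spread.

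The fitted log2 fold change of Ide was -0.07 (SE 0.28, interval -0.70 to 0.55, edgeR adjusted p = 0.927) in SUMO-KO against WT, 0.32 (SE 0.28, interval -0.31 to 0.94, adjusted p = 0.525) in Q175HD/SUMO-KO against SUMO-KO, and 0.24 with an adjusted p of 0.67 in Q175HD/SUMO-KO against WT. Without WT 2 the first turned to 0.36 and the last rose to 0.68. The described value of Q175HD against WT was 0.73 (SE 0.28) with WT 2 and 1.17 without it. Q175HD against SUMO-KO had 0.81 (SE 0.28). Q175HD/SUMO-KO against Q175HD had -0.49 (SE 0.28), with a wide interval of -1.11 to 0.12.

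Fgfbp3, which encodes a secreted protein that binds fibroblast growth factors and is the other gene known to vary in copy number with Ide, lies 349.1 kb from it. Its level was 5.13, 4.73 and 4.92 CPM in Q175HD. It was 2.34, 2.60 and 2.16 CPM in WT, 3.05, 2.29 and 4.23 CPM in SUMO-KO, and 2.65, 3.79 and 5.53 CPM in Q175HD/SUMO-KO. It was thus between 3.79 and 5.53 CPM in Q175HD, SUMO-KO 3, Q175HD/SUMO-KO 2 and Q175HD/SUMO-KO 3 and at most 3.05 CPM elsewhere. The former are libraries in which Ide was also between 74.9 and 103 CPM, and Q175HD/SUMO-KO 2 had the lowest Fgfbp3 level of these. WT 2 was different, with a high level of Ide and a level of Fgfbp3 like that of the other WT libraries. These levels rest on 23 to 92 reads a library.

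**Figure D2:**
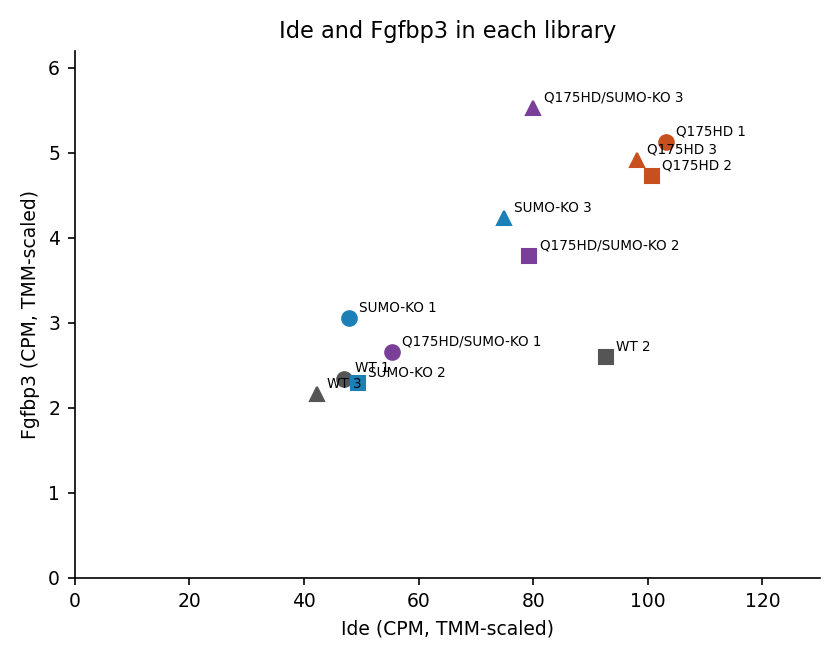
Level of Ide (horizontal axis) and of Fgfbp3 (vertical axis) in CPM, 1 point for each of the 12 libraries, coloured by genotype, with the symbol marking the library number. The 3 Q175HD libraries lie at the upper right, and WT 2 lies at 92.7 CPM of Ide with 2.60 CPM of Fgfbp3.

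The 4 counted members did not move as 1 block across libraries. Of them, 3 had no overlap between Q175HD and the other 9 libraries, with Gabra2 and Nnt below and Ide above, beside 0.725% of tested genes that lay below and 0.882% that lay above. The rule used the Q175HD levels of Gabra2 and Nnt, and nothing is read from these counts. Wdfy1 was kept out by WT 2 alone. WT 2 itself had the Q175HD level of Wdfy1, came near it in Ide, and was outside it in Gabra2, Nnt and Fgfbp3. Q175HD/SUMO-KO 3 had a high Fgfbp3 level with Wdfy1, Gabra2 and Nnt at the levels of its own genotype.

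**Figure D3:**
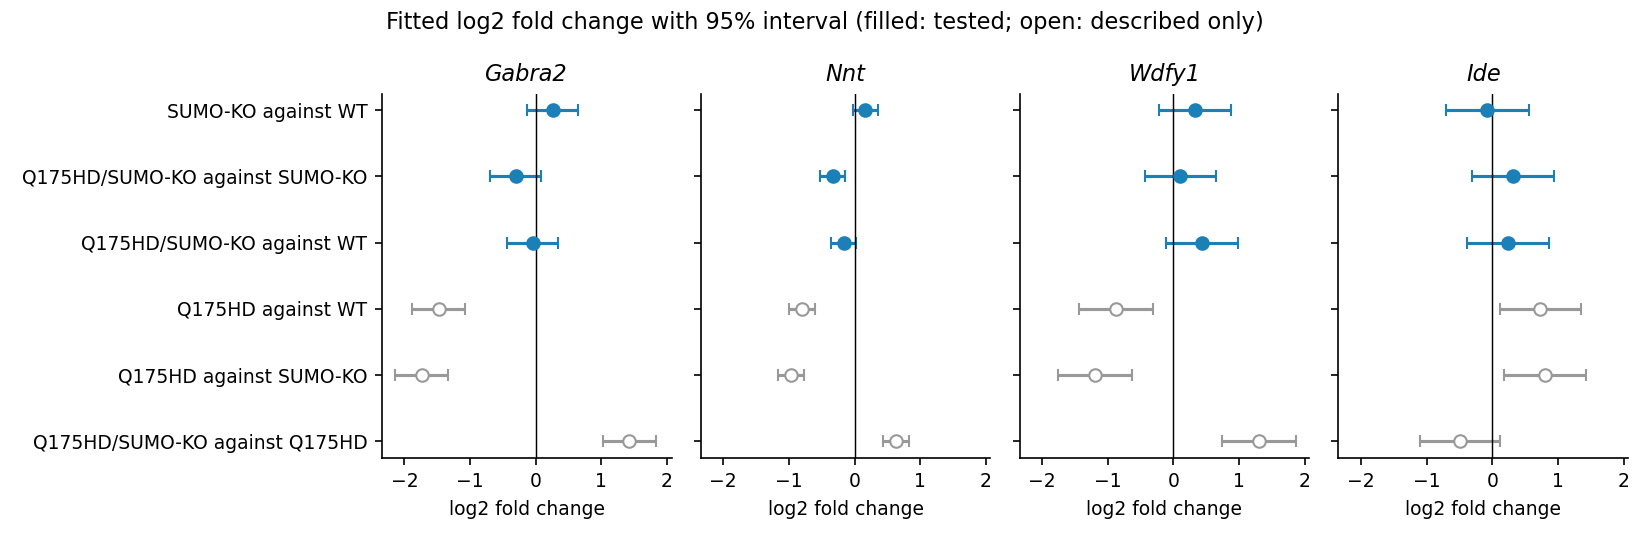
Fitted log2 fold change with its 95% interval for each counted member in 6 comparisons; filled points are the 3 tested comparisons without Q175HD, and open points, which include Q175HD, are descriptions. Among the filled points the interval of Nnt in Q175HD/SUMO-KO against SUMO-KO, -0.53 to -0.14, lies clear of 0 and is the only call.

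By group mean, the order of the members by transcript level per length was the same in WT, SUMO-KO and Q175HD/SUMO-KO. It differed in Q175HD. In TPM, a scale that divides by transcript length, as the authors deposited it, Gabra2 led in WT at 52.5 ± 10.6, followed by Ide at 33.2 ± 15.6, Wdfy1 at 20.5 ± 8.82 and Nnt at 20.2 ± 1.48 (SD, n = 3). The lead of Gabra2 did not hold in WT 2, where Ide was at 51.1 and Gabra2 at 42.4 TPM. In Q175HD, Ide led at 57.1 ± 3.67 TPM, followed by Gabra2 at 19.6 ± 1.71, Nnt at 12.1 ± 1.20 and Wdfy1 at 11.7 ± 0.68. Nnt and Wdfy1 did not differ beyond their spread in WT or in Q175HD. The means of Gabra2, Ide, Wdfy1 and Nnt were 61.7, 30.1, 25.1 and 22.1 TPM in SUMO-KO. In Q175HD/SUMO-KO they were 48.5, 36.5, 26.3 and 17.0 TPM. Gabra2 and Nnt were chosen after being seen low in Q175HD, so nothing is read from the Q175HD order.

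The genes nearest to each counted member on its chromosome set its Q175HD level beside theirs. Gabra2 lies in a cluster of receptor subunit genes. In Q175HD against WT, described without a test, Gabrg1, 115 kb to its lower-coordinate side, had a log2 fold change of 0.41 (SE 0.19), Gabra4, 473.9 kb to the other side, had -0.27 (SE 0.11) and Gabrb1 had -0.07 (SE 0.09), against -1.48 for Gabra2. Beside Nnt, Paip1 at 19.6 kb, which encodes a translation factor, had 0.15 (SE 0.10), and Fgf10 at 543.3 kb, a growth factor gene with a mean of 21.1 reads, had -2.25 (SE 0.58). Mrpl44, a mitochondrial ribosomal protein gene that overlaps the position of Wdfy1, had 0.21 (SE 0.16), and Serpine2, a protease inhibitor gene 18.1 kb away, had -0.05 (SE 0.10). Ap1s3, 30.3 kb to the lower-coordinate side of Wdfy1 and with a mean of 29 reads, had 0.08 (SE 0.29). Beside Ide, Kif11, a mitotic kinesin gene 38.6 kb away with a mean of 40.9 reads, had 0.74 (SE 0.24), close to the 0.73 of Ide, while March5, a mitochondrial ubiquitin ligase gene 46.6 kb to the other side, had 0.15 (SE 0.15).

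**Figure D4:**
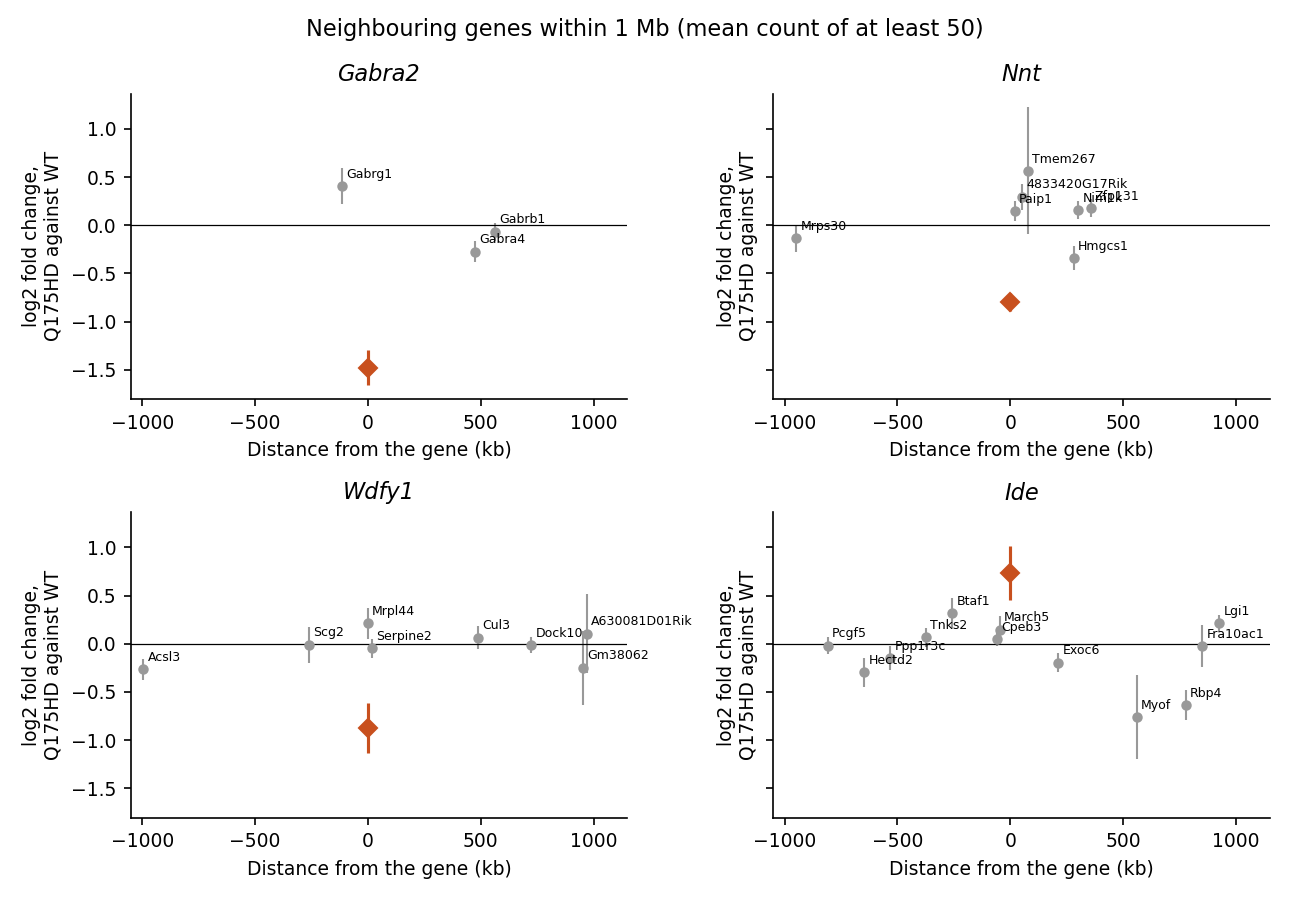
Log2 fold change of Q175HD against WT, with its SE, for each counted member (diamond) and for genes within 1 Mb with a mean of at least 50 reads (circles), by distance from the member in kb. Gabra2 lies at -1.48 beside Gabrg1 at 0.41, and Ide lies at 0.73. Genes with fewer reads than the minimum are not drawn, among them Kif11 at 0.74 and Fgfbp3 at 1.06, both near Ide. Near Nnt, Fgf10 at -2.25 and 3110070M22Rik at 1.2 are not drawn for the same reason. No test was made, since the members were chosen on these libraries.

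Within 1 Mb, 0 of the 5, 11, 13, 17 and 17 tested neighbours of Gabra2, Nnt, Wdfy1, Entpd4 and Ide were called by edgeR in SUMO-KO against WT. Over all tested genes, 0.045% were called there. Of these 63 neighbours, 8 had an unadjusted edgeR p under 0.05 there, beside 2395 of the 17796 genes tested. DESeq2 called 2, Dock10 and Hmgcs1, beside 257 over all genes. In Q175HD/SUMO-KO against SUMO-KO, Gabra4 fell by 0.47 on the log2 scale (SE 0.11, edgeR adjusted p = 0.0212) and Dock10, near Wdfy1, fell by 0.55 (adjusted p = 0.00207). Near Entpd4, Slc25a37, a mitochondrial iron carrier gene, fell by 0.46 (adjusted p = 0.00591) and Rhobtb2 fell by 0.76 (adjusted p = 0.00249). In Q175HD/SUMO-KO against WT the calls were Zfp131 near Nnt, higher by 0.39 (adjusted p = 0.0212), and Stc1 and Rhobtb2 near Entpd4, which fell by 1.17 and 0.72 (adjusted p-values of 0.0244 and 0.00422). The edgeR calls came to 4 of the 63 neighbours in Q175HD/SUMO-KO against SUMO-KO and 3 of 63 against WT, beside 7.81% and 8.44% of all tested genes. DESeq2 called 6 and 8 of these neighbours, beside 1806 and 1921 of the 17796 genes. By edgeR, 0 neighbours of Ide were called in any of the 3 comparisons, with 2, 4 and 4 of the 17 at an unadjusted p under 0.05. Over all 17796 tested genes, 2395, 4340 and 4336 were under that value. DESeq2 called Lgi1, near Ide, in Q175HD/SUMO-KO against WT.

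Related genes were followed in lists written from textbook knowledge, with earlier results of these data known. Of 15 tested GABA-A receptor subunits and partners, 0 were called by edgeR or DESeq2 in SUMO-KO against WT. There 2 had an unadjusted edgeR p under 0.05, beside 2395 of the 17796 genes tested. In Q175HD/SUMO-KO against SUMO-KO, edgeR called 4 of the 15 lower, where 4.61% of all tested genes were called lower. Gabrd, the delta subunit of extrasynaptic receptors, fell by 0.94 on the log2 scale (SE 0.13, edgeR adjusted p = 0.000941), Gabrg3 by 0.66 (SE 0.12, adjusted p = 0.00574), Gabra4 by 0.47, and Gphn, the scaffold gephyrin, by 0.33 (SE 0.08, adjusted p = 0.0228). Gabrd also fell against WT, by 0.84 (edgeR adjusted p = 0.00189), where DESeq2 called all 4 of these genes, beside 1921 of the 17796 genes. By edgeR, Gabrg3, Gabra4 and Gphn were not called against WT. They had -0.38, -0.32 and -0.24 there, with edgeR adjusted p-values of 0.0762, 0.0893 and 0.0812. The list's median log2 fold change in Q175HD/SUMO-KO against SUMO-KO was 0.0053, beside 0.0047 over all tested genes. Projection neuron markers were lower in the same libraries, as given above, and their part in these falls was not tested.

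The other lists held at most 1 edgeR call in a comparison, and in SUMO-KO against WT neither edgeR nor DESeq2 called a gene of any list. Over all tested genes the edgeR share was 0.045% in SUMO-KO against WT, 7.81% in Q175HD/SUMO-KO against SUMO-KO and 8.44% in Q175HD/SUMO-KO against WT, so that 0 or 1 call in a list of this size is near the background. In the same order, DESeq2 called 257, 1806 and 1921 of the 17796 genes, and 2395, 4340 and 4336 had an unadjusted edgeR p under 0.05. Among 16 genes of mitochondrial NADPH supply and thiol redox, the company of Nnt, Shmt2, a mitochondrial serine hydroxymethyltransferase, rose by 0.47 in Q175HD/SUMO-KO against SUMO-KO (SE 0.11, edgeR adjusted p = 0.0229). Gpx4, a lipid peroxide reductase, and Me3, a mitochondrial malic enzyme, had 0.36 and -0.49 there with adjusted p-values of 0.0614 and 0.0642, and DESeq2 called both, and the list's median was 0.09. Among 15 tested genes of the TRIF branch and the Wdfy family, Irf3, a transcription factor of interferon induction, rose by 0.52 in Q175HD/SUMO-KO against WT (SE 0.11, adjusted p = 0.014), while the relatives Wdfy2 and Wdfy3 had 0.28 and -0.16 and were not called, and the list's median was 0.13 beside 0.05 over all tested genes. Among 10 tested nucleotide-hydrolysing enzymes related to Entpd4, Entpd1, which degrades extracellular ATP, fell by 0.46 and 0.60 in Q175HD/SUMO-KO against SUMO-KO and against WT (edgeR adjusted p-values of 0.0436 and 0.0119), and the list's median was -0.15 in both. DESeq2 also called Nt5e in the former, where its edgeR values were -0.71 and an adjusted p of 0.0574. In the latter it also called Entpd3, with edgeR values of -0.41 and 0.0642. Among 13 tested genes of insulin and amyloid peptide handling beside Ide, 0 were called by edgeR in any of the 3 comparisons, with 0, 1 and 3 at an unadjusted p under 0.05 and 0, 1 and 2 called by DESeq2 (Insr, and Ece1 with Igf1r). The medians of that list were 0.0034 in SUMO-KO against WT, -0.09 in Q175HD/SUMO-KO against SUMO-KO and -0.20 in Q175HD/SUMO-KO against WT. Of the other genes known to differ between substrains, 5 of 8 passed the filter, and Cyfip2, a regulator of actin assembly, fell by 0.52 in Q175HD/SUMO-KO against WT (SE 0.13, adjusted p = 0.024). Crb1, Dock2 and Fgfbp3 were not called.

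Some genes outside these lists had profiles near those of the members over the 12 libraries. Likeness was the root-mean-square difference of log2 CPM after centring each gene, among 11727 genes with a mean of at least 50 reads, and it is a description over libraries that share the same genotype groups. For Gabra2, whose own spread on that scale was 0.71, the nearest were Nnt at 0.38, Ccdc153 at 0.40, Dnah1 at 0.41, Wdfy1 at 0.41 and St8sia2 at 0.43. Nnt, with a spread of 0.37, was nearest to Lurap1l at 0.16, Osbpl3 at 0.18, Cdc14a at 0.20, Phtf2 at 0.20 and Efcab7 at 0.21. For Wdfy1, with 0.60, they were Hist1h4n at 0.34, Nr4a3 at 0.35, Fosl2 at 0.39, Nnt at 0.39 and Gabra2 at 0.41. For Ide, with 0.46, they were Tomm6os at 0.26, Trim17 at 0.29, Dcps at 0.29, Zfp367 at 0.29 and Gsto1 at 0.30. The profiles include the Q175HD libraries on which Gabra2 and Nnt were chosen, so nothing is read from the members that lie near one another.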

How the data were processed

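The authors deposited whole-number read counts per gene without normalization, TPM values, and log2 fold changes with p-values per comparison, which the file headers name as DESeq2 output. Per the labels' protocols, RNA came from the miRNeasy Mini Kit and libraries from a directional NEBNext Ultra II kit with ribosomal RNA depletion. Tools listed in the submitters' processing notes include STAR 2.5.2a, Bowtie 1.1.2 and cutadapt 2.10; how multiply placed reads were handled is not given in the sources used here.

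Counts of all 12 libraries were fitted with edgeR 4.0.16 (R 4.3.3; filterByExpr with minimum count 10 and minimum total 15; TMM; quasi-likelihood with 4 group means; Benjamini-Hochberg over 17796 genes, threshold 0.05). The common biological coefficient of variation was 0.171. DESeq2 1.42.0, other filters and scalings, covariates and left-out libraries were alternatives. The fitting code was tested on simulated data. Replicates differed beyond sampling noise (chi-square per degree of freedom 9.26 to 30.4). Gene positions and sequences came from GENCODE M21 (GRCm38). The 5 members are always named, with the called neighbours and called list genes. For the counted members, the 5 nearest profiles and the nearest neighbour on each side are named too. Members and lists were chosen with earlier results of these data known. WT 2 and Q175HD/SUMO-KO 3 were also left out together, an alternative chosen on a gene that is not reported here.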

Additional observations from a re-analysis of the deposited data

How the results depend on the processing

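Direction and call held for most values of the members in the tested comparisons. The log2 fold change of Nnt in Q175HD/SUMO-KO against SUMO-KO lost its call without a filter (-0.32), with only the 2 groups compared (-0.34) and without WT 2 and Q175HD/SUMO-KO 3 (-0.34, chosen after seeing the data); the smaller fits hold fewer libraries, and the cause for the unfiltered fit was not tested. In SUMO-KO against WT, Wdfy1 turned to -0.014 without WT 2 and Q175HD/SUMO-KO 3, and Ide turned to 0.055 with the cortical list as a covariate and to 0.34 without those libraries, all uncalled.

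The number of genes called in SUMO-KO against WT, 8, became 119 without a filter, 2 at a mean count of at least 50, 257 with DESeq2, and 0 with the cortical covariate, with only the 2 groups and without WT 2 and Q175HD/SUMO-KO 3. The 1389 calls of Q175HD/SUMO-KO against SUMO-KO became 407 with only the 2 groups and 626 without those libraries. The 1502 calls of Q175HD/SUMO-KO against WT became 446 with the cortical covariate and 584 without those libraries. The cause was not tested.

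Leaving out 1 library at a time gave 0 calls (without WT 2) to 1422 (without SUMO-KO 3), 747 to 2395 and 674 to 1160 in these 3 comparisons. In SUMO-KO against WT, Gabra2 ranged from 0.12 to 0.42, Nnt from 0.10 to 0.21, Wdfy1 from 0.01 to 0.60 and Ide from -0.32 to 0.36. In Q175HD/SUMO-KO against SUMO-KO they ranged from -0.49 to -0.21, -0.37 to -0.30, 0.04 to 0.17 and 0.20 to 0.56. In Q175HD/SUMO-KO against WT they ranged from -0.23 to 0.12, -0.23 to -0.12, 0.12 to 0.71 and 0.04 to 0.68. The described values of Q175HD against WT ranged from -1.62 to -1.31, -0.86 to -0.75, -1.19 to -0.60 and 0.53 to 1.17.

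With the replicate number as a block the calls were 6, 1704 and 1693, and Nnt was -0.33 with an edgeR adjusted p of 0.0277 in Q175HD/SUMO-KO against SUMO-KO; the block changed no call of a member. Same-numbered libraries deviated together with a correlation over 0.1 in 10 of 18 pairs (-0.26 to 0.60), and 9 of 12 libraries were nearest to their own number, a hint of a shared factor from the data that the labels do not state. Sex follows the number in part, since WT 2, SUMO-KO 2 and Q175HD/SUMO-KO 2 were the female libraries, and its part in these correlations was not tested. Not every pair passed 0.1, so the fit without the block is the one reported. A mean count of at least 200 for the nearest profiles kept 2 of 5 for Gabra2 and Nnt, 4 for Wdfy1 and 0 for Ide; those lost have fewer reads than that minimum.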
